A study of Mus musculus with 9 samples.

Results

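The genes described here encode collagens, laminins and other proteins of the extracellular matrix, together with the cytoskeletal gene Tagln. Of 33 genes listed for this group, 31 were matched to a probe set with a single gene symbol, and each was read from the probe set with the highest mean log2 value over all 9 arrays. They are 31 of 18193 genes with a single symbol and hold 73 of the 45037 probe sets tested; the other two genes are not analysed here. By role, 11 build basement membranes, 14 belong to the stromal matrix, 5 are matricellular proteins and 1, Tagln, is an actin-binding protein of smooth muscle.

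Expression was measured on Affymetrix mouse arrays in primary granulosa cells, which were collected by needle puncture from mice aged 20 to 26 days, 48 h after an injection of equine chorionic gonadotrophin (eCG), a hormone that makes follicles grow. The cells attached overnight in medium with 1% fetal bovine serum and were then kept for 24 h in serum-free medium with an adenovirus that encodes enhanced GFP, Cre recombinase or WNT4, aiming at a multiplicity of infection near 50 in every group, and each virus has 3 arrays. GFP is the control for infection, WNT4 is a secreted signalling protein of the ovary, and Cre recombines floxed alleles of Ctnnb1, the beta-catenin gene. The mice were of several genotypes, and no source used here says which genotype lies behind which array, so floxed alleles may also be present where no Cre was added. The replicates are called biological, but nothing says that they came from different animals or dishes, so p-values reflect only how these samples vary, which may be technical. Wnt4 and Ctnnb1 did not settle the labels. The brighter Wnt4 probe set averaged 9.41 ± 0.45 (SD, n = 3) with GFP, 10.63 ± 0.55 with Cre and 9.34 ± 0.48 with WNT4. A second, dimmer one gave 8.32 ± 0.78 with GFP, 9.62 ± 0.51 with Cre and 9.29 ± 0.82 with WNT4, so it read 0.97 higher with WNT4 than with GFP, in groups that overlapped. The 3 Ctnnb1 probe sets differed between Cre and GFP by 0.04, 0.20 and 0.10 on the log2 scale. Where these probes lie relative to the virus transcript or the floxed exons is unknown here, and groups below are the arrays as labelled.

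Inside the follicle, granulosa cells sit on a basement membrane that separates them from the theca and the ovarian stroma. A basement membrane is a sheet of laminin trimers and collagen IV, tied together by nidogens and the heparan sulphate proteoglycan perlecan. The stroma outside it is held by fibrillar collagens, small leucine-rich proteoglycans and elastic fibres, and is made mainly by mesenchymal cells. Matricellular proteins bind matrix and cell surface receptors without being a main part of the structure. Granulosa markers were bright on every array: the mean level of 13 such genes ran from 9.94 to 10.62, and Inha, the inhibin alpha subunit, ran from 12.88 to 13.96. In RNA from whole cultures, fewer cells of a type and less RNA per cell cannot be told apart.

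With WNT4, the secreted collagen-binding protein gene Sparc, the proteoglycan gene Vcan and the fibrillar collagen gene Col5a1 read higher than with GFP on every array, and the laminin genes Lama5 and Lamb1 read lower on every array. None of the 31 genes passed limma's test at an adjusted p under 0.05 in any of the 3 comparisons, against 7 of 45037 probe sets (0.0155%) for WNT4 against GFP and 0 (0%) in both others. At an unadjusted p under 0.05, WNT4 against GFP gave 6 of the 31 genes, 3 higher and 3 lower, where 13.0% of all probe sets passed (9.12% higher and 3.91% lower). Most of these genes are bright, and of the probe sets whose mean log2 value is 6 or more, called bright below, 24.4% passed. The genes' share of 19.4%, or 22.2% of the 27 bright ones, was near that background. Groups did not overlap for 5 of the 31 genes, 3 higher and 2 lower. That is 16.1%, against 14.8% of all probe sets (9.28% higher and 5.49% lower) and 23.6% of bright ones. Over all probe sets, this comparison gave 4109 higher and 1761 lower at that limit, but 2078 and 2249 after quantile normalization. Centring each array on its 75th percentile gave 2056 and 4765, and shifted the median difference over all probe sets to -0.15. The genes' own split of 3 higher and 3 lower, and the genes in it, were the same under 75th percentile centring, and quantile normalization added Col18a1 on the higher side. Leaving out 1 array at a time turned the sign of the difference for 13 of the 31 genes, and turned it or moved it by over 1.5 times for 25. The other 6, Lama5, Lamb1, Col5a1, Vcan, Sparc and Thbs1, are the genes that passed the unadjusted limit. That match is largely built in, since both measures weigh the same differences against the spread of the same arrays. These counts were not taken over all probe sets.

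Against GFP, the arrays labelled Cre gave 0 of 31 genes at an unadjusted p under 0.05 with limma, where 2.23% of all probe sets passed. Leaving out 1 array at a time gave 0 to 2 genes, the latter, Col5a1 and Col6a1, without Cre 2. Lama5 was the 1 gene whose groups did not overlap, on the lower side, as was the case for 6.02% of all probe sets (3.04% on the lower side). WNT4 against Cre gave 3 of 31 (9.68%), with Sparc higher and Lama5 and Lamb1 lower. Of all probe sets 6.23% passed (5.07% higher and 1.17% lower), and of bright ones 12.7%. The same 3 genes had groups that did not overlap, against 8.23% of all probe sets (5.38% higher and 2.85% lower) and 11.4% of bright ones. That comparison gave 2282 probe sets higher and 526 lower, and 891 and 908 after quantile normalization. Its count of genes became 7 without WNT4 3, 5 without Cre 2 or WNT4 2, and 2 without WNT4 1. A block for replicate number, which may pair these arrays, gave 5, with Col5a1 and Thbs1 added. Both comparisons with GFP share the GFP arrays, so their values are given side by side.

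**Figure D1:**
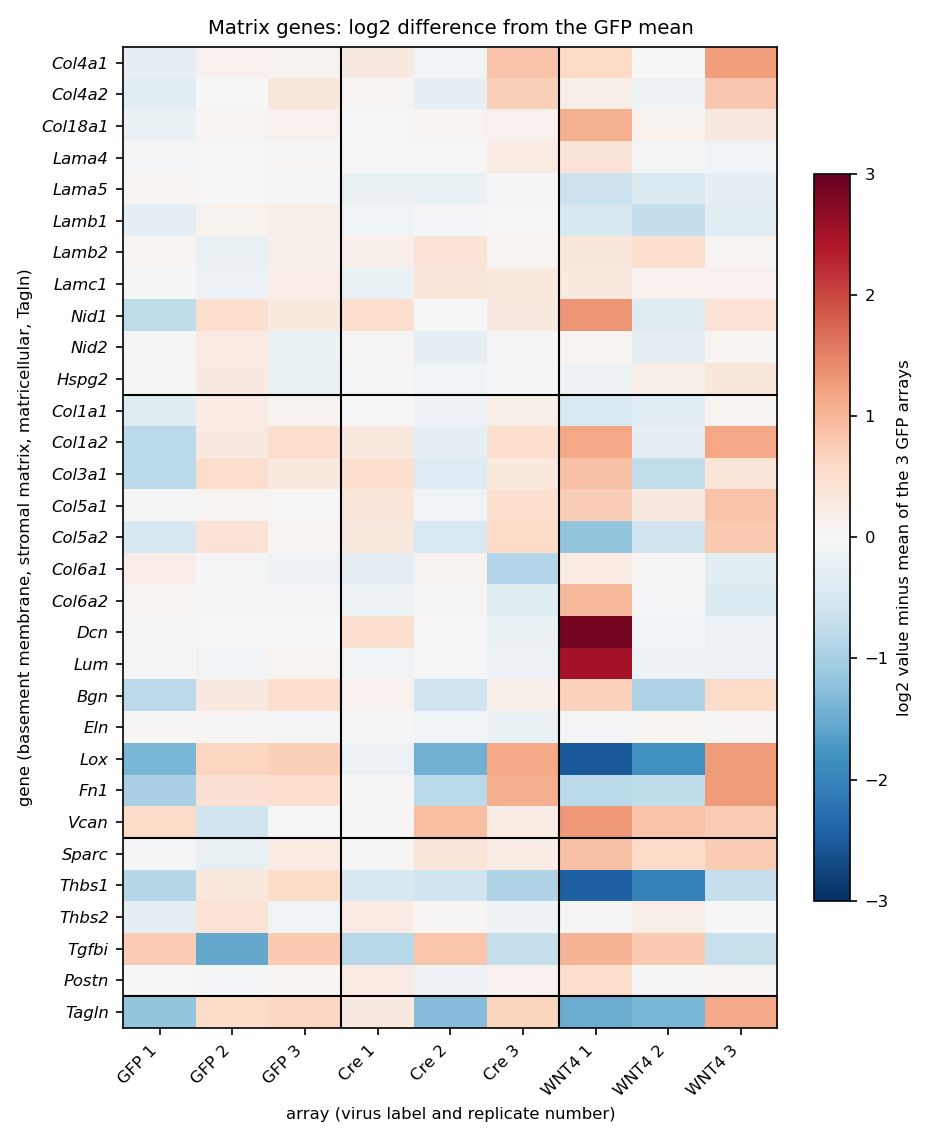
Each cell is the log2 value of a matrix gene (rows) on 1 of 9 arrays (columns) minus the mean of its 3 GFP arrays. Colours run from -3 to 3, and black lines separate the groups of genes and of arrays. Dcn and Lum are darkest on WNT4 1 alone, and Thbs1 is below the GFP mean on all Cre and WNT4 arrays.

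As a group, the 11 basement membrane genes had a median log2 difference of 0.18 between WNT4 and GFP, 0.09 between Cre and GFP and 0.09 between WNT4 and Cre. The 14 stromal genes had medians of 0.14, 0.05 and 0.27 in the same order, and the 5 matricellular genes 0.18, 0.04 and 0.12. The medians over all probe sets were 0.00, -0.02 and 0.02, and over bright probe sets they were 0.16, 0.03 and 0.12. In WNT4 against GFP, 8 of the 11 basement membrane genes, 9 of the 14 stromal genes and 4 of the 5 matricellular genes had a positive difference. So did 12907 of 18658 bright probe sets and 22355 of all 45037. The 21 of all 31 genes were near the share of bright probe sets. Quantile normalization took the basement membrane median to 0.03 and the stromal median to -0.04. Without WNT4 1 the stromal median for WNT4 against GFP was -0.13, and without WNT4 2 it was 0.45. For WNT4 against Cre it was -0.06 without WNT4 1 and 0.47 without WNT4 2, and for Cre against GFP it ran from -0.15 to 0.18 with 1 array left out.

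**Figure D2:**
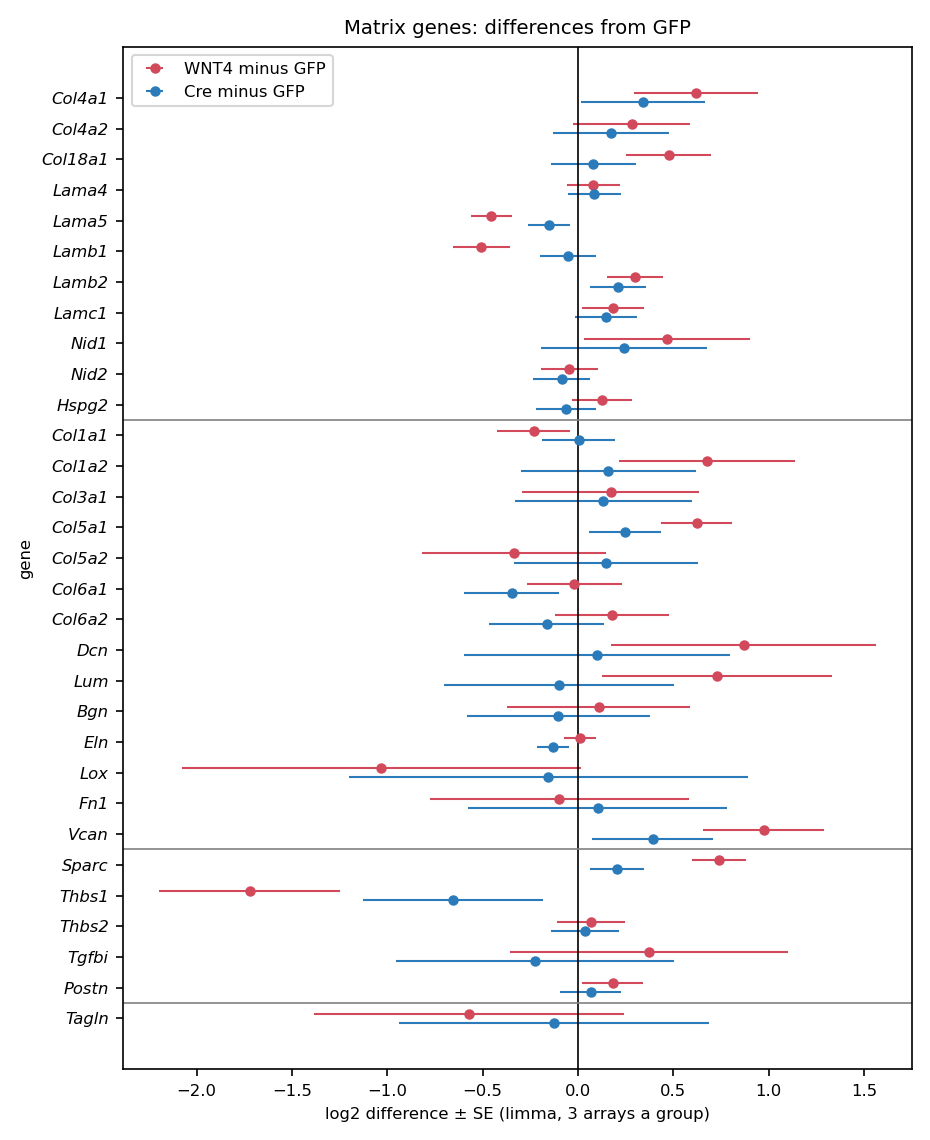
Points are limma's log2 differences from GFP for the 31 genes and bars their standard errors (3 arrays a group), with WNT4 in red and Cre in blue. In WNT4, Sparc, Vcan, Col5a1, Col18a1 and Lamb2 lie right of 0 and Lama5, Lamb1 and Thbs1 left of it by over 2 standard errors. Lox, Tagln, Dcn and Tgfbi have the widest bars.

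The collagen IV chains come first among the basement membrane genes. Col4a1 and Col4a2 encode the chains of the main collagen IV trimer and are transcribed in opposite directions from start sites that lie next to each other. In RefSeq's GRCm38.p6 coordinates their starts are the first and the last base of a stretch of 22 bases, chr8:11312805-11312826. The bases from the Col4a2 start (first base, plus strand) to the Col4a1 start (last base, minus strand) are shown because both genes share this stretch and had the same lowest array in each group.
Col4a2 and Col4a1 starts: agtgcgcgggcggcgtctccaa

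Col4a1 read 10.98, 11.35 and 11.33 with GFP, 11.48, 11.13 and 12.07 with Cre, and 11.82, 11.22 and 12.47 with WNT4 (log2 of arrays 1, 2 and 3). Col4a2 read 9.68, 9.99 and 10.33, then 10.06, 9.75 and 10.72, then 10.18, 9.86 and 10.81. In both genes GFP 1, Cre 2 and WNT4 2 were the lowest arrays of their groups, Cre 3 and WNT4 3 were the highest of theirs, and the groups overlapped. The difference between WNT4 and GFP was 0.62 ± 0.32 (SE; limma adjusted p = 0.463) for Col4a1 and 0.28 ± 0.31 (adjusted p = 0.744) for Col4a2. Between Cre and GFP it was 0.34 and 0.17. Quantile normalization lowered the WNT4 difference to 0.28 for Col4a1 and to 0.03 for Col4a2. A second, dimmer Col4a1 probe set gave 0.34 ± 0.18.

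A list of 14 genes known to respond to low oxygen was high on the same arrays, Cre 3 and WNT4 3. Its median stood 2.99 above the GFP mean on Cre 3 and 3.33 on WNT4 3, with all 14 genes highest of their group there, and between -0.20 and 0.57 on the other arrays. At the low end the lists differed in part: WNT4 2 was lowest of its group for 13 of the 14, but so were Cre 1 for 13 and GFP 2 for 9, where the collagen IV genes had Cre 2 and GFP 1. Its mean level ran from 8.73 to 9.05 with GFP, 8.65 to 11.92 with Cre and 8.95 to 12.23 with WNT4. Without the 3 arrays numbered 3, the WNT4 difference was 0.35 for Col4a1 and 0.18 for Col4a2. Leukocyte markers were also higher on these arrays, with a median over 8 genes of 0.88 above the GFP mean on Cre 3 and 0.84 on WNT4 3. It was -0.37 to 0.34 on the others. Of the 8 genes, 7 were highest of their group on Cre 3 and 6 on WNT4 3. Ptprc, which defines leukocytes, stayed between 4.34 and 5.69 and was the only 1 of the 8 with a mean under 6. The median of 13 granulosa markers was -0.36 on Cre 3, where 11 of them were lowest of their group, and -0.23 on WNT4 3. The part of the low-oxygen genes and of these cells in the collagen IV values was not tested.

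Enzymes that modify new collagen chains were read next to the collagens. P4ha1 and P4ha2, catalytic subunits of prolyl 4-hydroxylase, are named here after their values were seen. P4ha2 read 8.05, 7.71 and 8.19 with GFP, 7.83, 8.24 and 11.53 with Cre, and 8.70, 8.31 and 11.96 with WNT4. P4ha1 read 8.39 to 9.05 with GFP, 11.30 on Cre 3, 11.77 on WNT4 3 and 8.69 to 9.17 on the other Cre and WNT4 arrays. Both enzymes thus stood far above all other arrays on Cre 3 and WNT4 3. The P4ha2 difference between WNT4 and GFP of 1.67 ± 1.12 was 0.62 without the arrays numbered 3. Of 20 collagen-processing genes measured, WNT4 against GFP gave 6 higher and 2 lower at an unadjusted p under 0.05, which is 40.0% of them where 13.0% of all and 24.4% of bright probe sets passed, and 0 passed with adjustment. For Cre against GFP the counts were 1 and 2 (15%, against 2.23% of all and 2.93% of bright probe sets). For WNT4 against Cre they were 2 and 0 (10.0%, against 6.23% of all and 12.7% of bright probe sets). These shares were not tested.

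Serpinh1, the collagen chaperone HSP47, read 12.10, 12.12 and 12.44 with GFP, 12.32, 12.44 and 12.13 with Cre, and 12.92, 12.57 and 12.79 with WNT4. Every WNT4 array lay above every array of both other groups, by 0.54 ± 0.14 over GFP (limma adjusted p = 0.207) and 0.47 over Cre. After quantile normalization the difference from GFP was 0.16. Plod1, a lysyl hydroxylase, was 0.61 ± 0.16 higher with WNT4 than with GFP (adjusted p = 0.223) and 0.38 higher with Cre, in groups that did not overlap. Ppib, a prolyl isomerase of the endoplasmic reticulum, was 0.59 higher with WNT4 than with GFP, or 0.12 after quantile normalization. It was 0.58 higher with WNT4 than with Cre, or 0.21 after quantile normalization. P4ha3, a further prolyl hydroxylase subunit with every array under 4.90, was 0.42 lower with WNT4 than with GFP and 0.28 lower with Cre. Loxl3, a lysyl oxidase-like enzyme, was 0.51 lower with WNT4 than with GFP and 0.46 lower with Cre. Beside these, the 11 genes of the unfolded protein response, which the endoplasmic reticulum raises when proteins fail to fold, exceeded the GFP mean by a median of 2.79 on WNT4 1, 0.53 on WNT4 2 and 1.68 on WNT4 3, with -0.28 to 0.25 on the other arrays. Their part in the values of Serpinh1, Plod1 and Ppib was not tested.

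**Figure D3:**
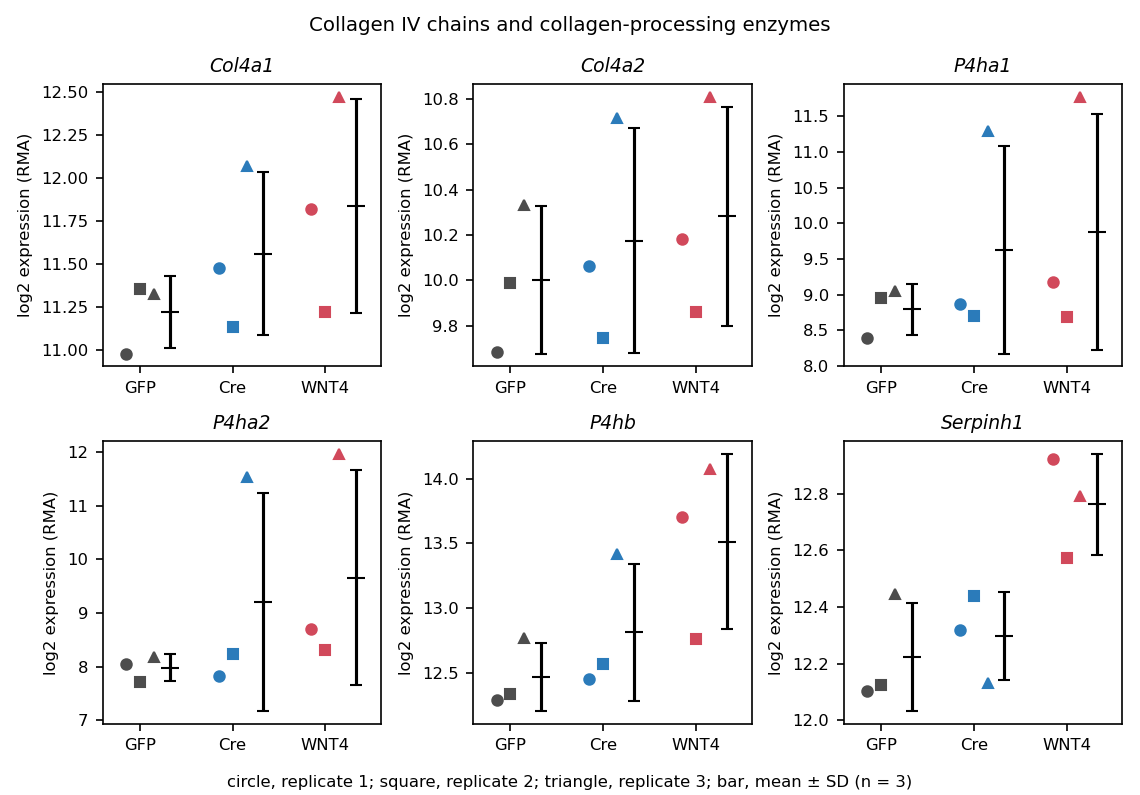
Log2 values of both collagen IV chains and 4 collagen-processing genes on each array, with circles, squares and triangles for replicates 1, 2 and 3 and bars for the mean ± SD (n = 3). P4ha1 and P4ha2 are high on the triangles of Cre and WNT4, where Col4a1 and Col4a2 are highest too, and Serpinh1 is higher on all 3 WNT4 arrays.

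Laminins are trimers of an alpha, a beta and a gamma chain. Lama5, the alpha 5 chain, read 8.25, 8.19 and 8.13 with GFP, 8.00, 7.98 and 8.13 with Cre, and 7.54, 7.76 and 7.91 with WNT4. The 3 groups did not overlap, with WNT4 lowest, although Cre 3 and GFP 3 print alike at this rounding. Lama5 was 0.45 ± 0.11 lower with WNT4 than with GFP, a 1.37-fold difference (limma adjusted p = 0.187), 0.15 lower with Cre, and 0.30 lower with WNT4 than with Cre (adjusted p = 0.773). Its dimmer probe sets, with means of 5.98 and 4.82, differed between WNT4 and GFP by -0.19 and 0.05, so the difference rests on the brightest one.

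Lamb1, the beta 1 chain, read 10.67, 11.09 and 11.15 with GFP, 10.85, 10.93 and 10.98 with Cre, and 10.50, 10.25 and 10.65 with WNT4. All WNT4 arrays lay below all arrays of both other groups, while GFP and Cre overlapped. The difference was -0.51 ± 0.15 against GFP, 1.42-fold (limma adjusted p = 0.241), and -0.46 against Cre (adjusted p = 0.773). It was -0.79 against GFP after quantile normalization. The other Lamb1 probe sets gave -0.63, -0.25 and -0.06 against GFP, in order of falling brightness.

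The other laminin chains among the 31 genes differed less between WNT4 and GFP. Lamb2, the beta 2 chain, read 8.72, 8.44 and 8.81 with GFP, 8.80, 9.06 and 8.75 with Cre, and 9.01, 9.14 and 8.72 with WNT4, with overlap throughout. It was 0.30 ± 0.15 higher with WNT4 than with GFP, and 0.11 higher after quantile normalization. Lama4, the alpha 4 chain of vessels and mesenchyme, lay between 6.67 and 7.17 on all arrays, and Lamc1, the gamma 1 chain found in most laminins, between 6.67 and 7.24. Lama4 differed by 0.08 between WNT4 and GFP and changed sign under centring on the 75th percentile, and Lamc1 differed by 0.18.

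Among the linkers, Nid1, nidogen 1, read 5.57, 6.80 and 6.61 with GFP, 6.82, 6.31 and 6.59 with Cre, and 7.65, 5.96 and 6.76 with WNT4. Its range within the WNT4 group was wider than its difference of 0.47 ± 0.44 from GFP, which was 0.03 without WNT4 1. Nid2, nidogen 2, stayed between 4.46 and 4.97 on all arrays. Hspg2, perlecan, ran from 8.63 to 9.19 and differed by 0.13 between WNT4 and GFP, or -0.06 after quantile normalization. Col18a1, whose collagen XVIII is cut to give endostatin, read 6.03 to 6.36 with GFP, 6.24 to 6.37 with Cre, and 7.29, 6.33 and 6.50 with WNT4. WNT4 1 set that gene's difference of 0.48 ± 0.22, which was 0.18 without that array.

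Of 17 other basement membrane genes measured, WNT4 against GFP gave 1 higher and 1 lower at an unadjusted p under 0.05, and Cre against GFP gave 0 and 2. Both are 11.8% of the list, where 13.0% and 2.23% of all probe sets passed. Agrn, the proteoglycan agrin, was 0.77 ± 0.27 higher with WNT4 than with GFP (limma adjusted p = 0.296), and Fbln1, fibulin 1, was 0.43 ± 0.14 lower (adjusted p = 0.278). Fbln1 was also 0.32 lower with Cre than with GFP, and Lamb3, the laminin beta 3 chain, was 0.30 lower at a mean with Cre of 4.56. Lama1, the laminin alpha 1 chain, named here after its values were seen, read 8.55, 9.51 and 9.52 with GFP, 9.58, 8.83 and 8.95 with Cre, and 8.55, 8.43 and 8.85 with WNT4. It was 0.58 ± 0.29 lower with WNT4 than with GFP (adjusted p = 0.44), more than Lama5 and Lamb1 in size, but GFP 1 read as low as the WNT4 arrays and the groups overlapped. Over the 17 genes the median difference between WNT4 and GFP was 0.02.

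The fibrillar collagens open the stromal genes. Col1a2, Col3a1 and Bgn had GFP 1, Cre 2 and WNT4 2 as the lowest arrays of their groups, and their sequences upstream of the start are shown to set these genes side by side. Each is the 250 bases before the RefSeq start in GRCm38.p6, on the plus strand: Col1a2 at chr6:4505368-4505617, Col3a1 at chr1:45311288-45311537 and Bgn at chrX:73483351-73483600. Capitals mark matches, searched on both strands, to the word CCAAT, to the TATA box core TATAA and to ACGTG, a form of the hypoxia response element core. Other forms of that core were not searched, so a gene without ACGTG may still hold them.
Col1a2: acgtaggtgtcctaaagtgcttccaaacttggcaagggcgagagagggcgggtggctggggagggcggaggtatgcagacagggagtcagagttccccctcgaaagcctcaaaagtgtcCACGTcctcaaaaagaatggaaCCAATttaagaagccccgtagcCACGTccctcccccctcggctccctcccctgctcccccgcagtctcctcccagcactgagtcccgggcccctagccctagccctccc
Col3a1: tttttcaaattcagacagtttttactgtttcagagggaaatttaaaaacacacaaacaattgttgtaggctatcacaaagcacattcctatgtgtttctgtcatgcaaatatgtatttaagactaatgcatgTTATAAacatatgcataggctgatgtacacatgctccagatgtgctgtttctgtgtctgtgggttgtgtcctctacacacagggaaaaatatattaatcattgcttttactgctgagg
Bgn: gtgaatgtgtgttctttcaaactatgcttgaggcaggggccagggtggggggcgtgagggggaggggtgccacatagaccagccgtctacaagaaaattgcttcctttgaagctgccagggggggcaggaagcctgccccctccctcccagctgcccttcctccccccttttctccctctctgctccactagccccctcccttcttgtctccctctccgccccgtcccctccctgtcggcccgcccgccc

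Col1a2 held CCAAT at -109 and the reverse strand form of ACGTG at -131 and -87, counted from the start site to the first base of the match. Col3a1 held TATAA at -117 and its reverse strand form at -118, which overlap, and Bgn held none of these words. Among 32851 promoters of this length, 33.85% held CCAAT, 22.78% TATAA and 16.57% ACGTG. Of the 31 genes, 19 had an entry in the promoter table, and 8, 4 and 2 of them held these words in that order. The words that matched thus differed between Col1a2, Col3a1 and Bgn. Of the other genes with the same lowest arrays, Col4a1, Col4a2 and Nid1 held CCAAT as Col1a2 did, and Col5a1 did not. A link between these words and the array values was not tested. The genes with ACGTG were Col1a2 and Col5a1.

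Col1a2, the alpha 2 chain of collagen I, read 7.72, 8.83 and 9.08 with GFP, 8.83, 8.25 and 9.03 with Cre, and 9.70, 8.27 and 9.70 with WNT4. WNT4 1 and 3 were above all other arrays, while WNT4 2 lay among the GFP values, and the difference from GFP was 0.68 ± 0.46 (limma adjusted p = 0.579). It was 1.16 without WNT4 2, 0.44 without either of the other WNT4 arrays and 0.27 without GFP 1. A second probe set of mean 7.23 gave 0.18. Col3a1, the collagen III chain of soft connective tissue, read 8.54, 9.87 and 9.64, then 9.83, 8.97 and 9.64, then 10.23, 8.62 and 9.70. Its difference of 0.17 ± 0.46 was smaller than the range in each group, and quantile normalization turned it to -0.05. Col1a1, the alpha 1 chain of collagen I, ran from 5.73 to 6.43 and differed by -0.23 ± 0.19.

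Col5a1 and Col5a2 encode chains of collagen V, which starts and limits collagen I fibrils. Col5a1 read 8.42, 8.50 and 8.44 with GFP, 8.83, 8.34 and 8.94 with Cre, and 9.19, 8.73 and 9.31 with WNT4. All WNT4 arrays lay above all GFP arrays, and the Cre arrays overlapped with both. The difference was 0.62 ± 0.19, 1.54-fold (limma adjusted p = 0.248), and a second bright probe set gave 0.60. It was 0.25 between Cre and GFP. Col5a2 read 10.80, 11.68 and 11.36 with GFP, 11.58, 10.82 and 11.88 with Cre, and 10.10, 10.67 and 12.06 with WNT4. WNT4 held both the lowest and the highest Col5a2 value of all arrays, and the difference of -0.34 from GFP was 0.09 without WNT4 1. Both chains ranked the GFP arrays alike and the Cre arrays alike, and both were highest of all arrays on WNT4 3. They parted on WNT4 1, where Col5a1 read 9.19 and Col5a2 had its lowest value.

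Col6a1 and Col6a2 encode chains of the beaded collagen VI. Col6a1 ran from 8.95 to 9.31 with GFP, 8.23 to 9.21 with Cre and 8.75 to 9.35 with WNT4, with Cre 3 lowest. Col6a2 read 8.04 to 8.16 with GFP, 7.71 to 8.11 with Cre, and 9.06, 8.04 and 7.67 with WNT4. Their differences between WNT4 and GFP were -0.02 and 0.18, and that of Col6a2 was -0.22 without WNT4 1.

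Dcn and Lum, the small leucine-rich proteoglycans decorin and lumican, stood out on 1 array. Dcn read 6.57, 6.64 and 6.64 with GFP, 7.10, 6.64 and 6.41 with Cre, and 9.50, 6.51 and 6.45 with WNT4. Lum read 4.71 to 4.91 with GFP, 4.65 to 4.81 with Cre, and 7.33, 4.68 and 4.65 with WNT4. The WNT4 differences from GFP, 0.87 ± 0.70 and 0.73 ± 0.60, were -0.14 and -0.16 without WNT4 1. Bgn, biglycan, a relative of decorin, read 8.15, 9.20 and 9.47 with GFP, 9.08, 8.34 and 9.08 with Cre, and 9.63, 8.01 and 9.50 with WNT4. Its difference of 0.11 was -0.10 after quantile normalization.

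On WNT4 1, some genes of mesenchymal cells were also high. Pdgfra, the PDGF alpha receptor, read 8.16 there and 5.67 to 6.64 elsewhere, Thy1 read 6.40 against 4.88 to 5.83, and Tcf21 read 6.28 against 4.76 to 5.91. As a whole, the list of 14 theca, stroma and smooth muscle genes did not stand apart. Its mean level ran from 6.34 to 6.58 with GFP, 6.32 to 6.63 with Cre and 6.27 to 6.67 with WNT4, and 10 of 14 had a mean under 6. On WNT4 1, 6 of the 14 were highest of the WNT4 group and 4, with Acta2 among them, were lowest. Cyp17a1, which defines theca, lay between 5.20 and 5.86 throughout. The median of 8 oocyte genes was 1.78 above the GFP mean on WNT4 1, but also 1.03 on Cre 1, 0.72 on GFP 2 and 0.59 on Cre 2, where Dcn read 7.10, 6.64 and 6.64 and Lum 4.72, 4.71 and 4.81. The part of such cells in the Dcn and Lum values was not tested.

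Elastic fibres and cross-links are made by elastin and lysyl oxidase. Eln, elastin, had the narrowest spread among these genes, from 6.43 to 6.71 on all arrays with a within-group SD of 0.06. Lox, which cross-links collagen and elastin, had the widest, with a within-group SD of 1.55. It read 8.42, 10.43 and 10.51 with GFP, 9.61, 8.35 and 10.94 with Cre, and 7.26, 7.94 and 11.07 with WNT4. WNT4 held both the lowest and the highest Lox value, and its difference of -1.03 ± 1.05 from GFP moved to -1.83 without the arrays numbered 3 and to -0.28 without WNT4 1.

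Fn1, fibronectin, which cells bind through integrins, read 7.70, 9.13 and 9.16 with GFP, 8.69, 7.85 and 9.75 with Cre, and 7.85, 7.91 and 9.93 with WNT4. It was low on GFP 1, Cre 2, WNT4 1 and WNT4 2, and differed by -0.10 ± 0.68 between WNT4 and GFP. Vcan, versican, a large proteoglycan that binds hyaluronan in the expanding cumulus, read 10.55, 9.38 and 9.97 with GFP, 10.00, 10.88 and 10.19 with Cre, and 11.26, 10.83 and 10.73 with WNT4. All WNT4 arrays lay above all GFP arrays, while 1 Cre array reached the WNT4 range. The difference from GFP was 0.97 ± 0.32, 1.96-fold (limma adjusted p = 0.271), and 0.39 between Cre and GFP. The other probe sets with a mean over 6 gave 1.46 and 0.85, and 5 dim ones gave -0.29 to -0.02.

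**Figure D4:**
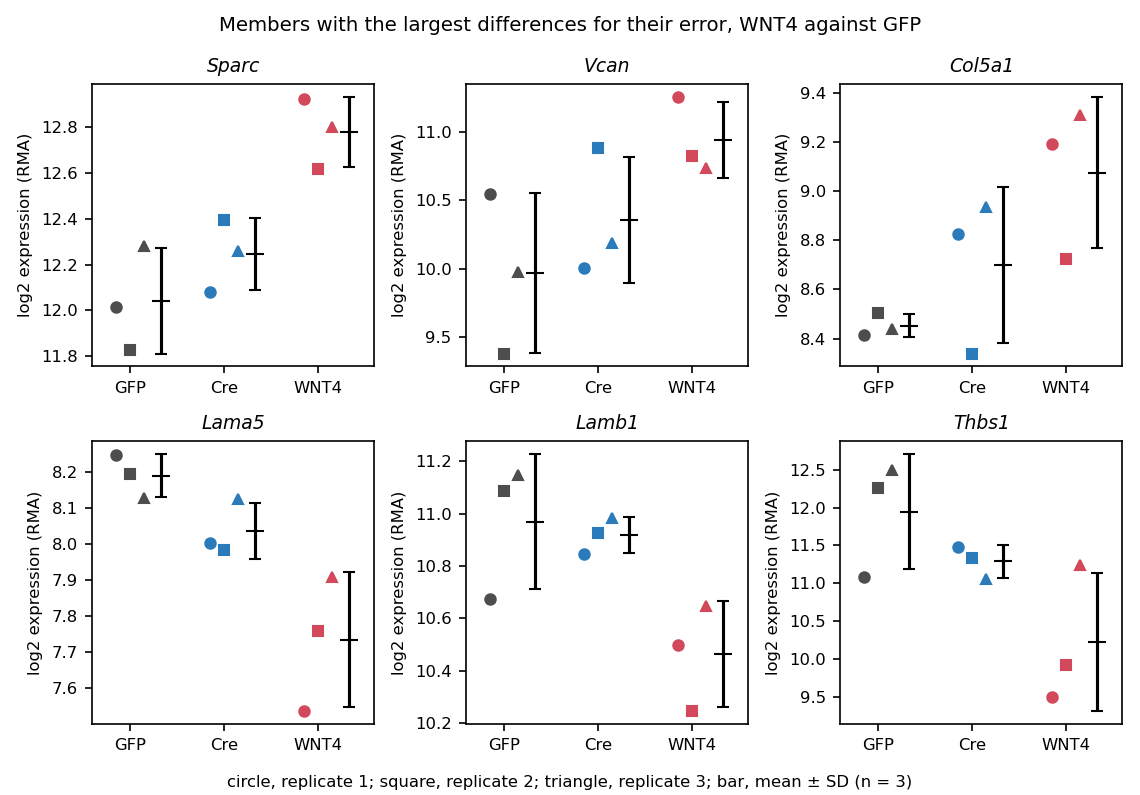
Log2 values on each array of the 6 matrix genes with an unadjusted p under 0.05 in WNT4 against GFP, with bars for the mean ± SD (n = 3). WNT4 lies fully above GFP for Sparc, Vcan and Col5a1 and fully below it for Lama5 and Lamb1, while Thbs1 overlaps through GFP 1 and WNT4 3.

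Sparc, also called osteonectin, leads the matricellular genes. It read 12.01, 11.83 and 12.28 with GFP, 12.08, 12.39 and 12.26 with Cre, and 12.92, 12.62 and 12.80 with WNT4. Every WNT4 array lay above every array of the other groups, which overlapped each other. The difference was 0.74 ± 0.14 over GFP, 1.67-fold, with limma's lowest adjusted p among the 31 genes (0.171), and 0.54 ± 0.14 over Cre (adjusted p = 0.773). It was 0.36 over GFP after quantile normalization, and without WNT4 2 it was 0.82 with an adjusted p of 0.0499, the only setting that passed. The second Sparc probe set gave 0.55, and the dimmest, of mean 6.39, gave -0.49 with groups that did not overlap, so its probe sets disagreed in sign.

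Thbs1, thrombospondin 1, an inhibitor of vessel growth that also activates TGF-beta, had the largest difference of the 31 genes. It read 11.08, 12.25 and 12.50 with GFP, 11.48, 11.34 and 11.05 with Cre, and 9.50, 9.92 and 11.24 with WNT4. WNT4 1 and 2 were below all other arrays, and WNT4 3 was above GFP 1, so the groups overlapped. The difference was -1.72 ± 0.47, 3.30-fold (limma adjusted p = 0.229), between WNT4 and GFP, -0.66 between Cre and GFP and -1.07 between WNT4 and Cre. A second probe set gave -2.14.

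Tgfbi, a TGF-beta-induced matrix protein, read 9.70, 7.41 and 9.74 with GFP, 8.13, 9.78 and 8.27 with Cre, and 9.97, 9.73 and 8.27 with WNT4. Its values fell near 8 or near 10 in each group, and the difference of 0.37 ± 0.73 between WNT4 and GFP was far inside that spread. All 4 Tgfbi probe sets had a within-group SD between 0.91 and 1.08. Thbs2, thrombospondin 2, lay between 4.32 and 4.99 and Postn, periostin, between 5.55 and 6.24 on all arrays. These 2 genes, with Nid2 and Lum, are the 4 of the 31 with a mean under 6, where small differences sit near the background of the arrays.

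Tagln, which codes for SM22, an actin-binding protein, read 8.84, 10.58 and 10.65 with GFP, 10.29, 8.71 and 10.70 with Cre, and 8.53, 8.66 and 11.15 with WNT4. It was low on the arrays where Fn1 was low. Acta2, smooth muscle actin, read 11.40, 12.50 and 12.58, then 12.11, 11.32 and 12.54, then 10.81, 11.06 and 12.87. The Tagln difference between WNT4 and GFP was -0.57 ± 0.81, and its groups overlapped. It was -0.12 without WNT4 1, -1.43 without WNT4 3 and -1.11 without the arrays numbered 3.

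Spread within groups was wide for the stromal genes. Over all 31 genes the median within-group SD was 0.43, against 0.17 over all probe sets and 0.24 over bright probe sets. Of the 31, 16 were above the 90th percentile of all probe sets, a level that 19.98% of bright probe sets passed. By role, the median SD was 0.68 for the stromal genes, 0.21 for the basement membrane genes and 0.24 for the matricellular genes. The basement membrane median was thus below that of bright probe sets. The matricellular median is the value of Thbs2, which like Postn has a mean under 6. The bright matricellular genes had SDs of 0.18 (Sparc), 0.695 (Thbs1) and 1.07 (Tgfbi). The difference between WNT4 and GFP was smaller than the within-group SD for 21 of 31 genes, that between Cre and GFP for 27, and that between WNT4 and Cre for 23. The same count was not taken over all probe sets, so it cannot be read as a trait of these genes. These shares are descriptions and were not tested.

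**Figure D5:**
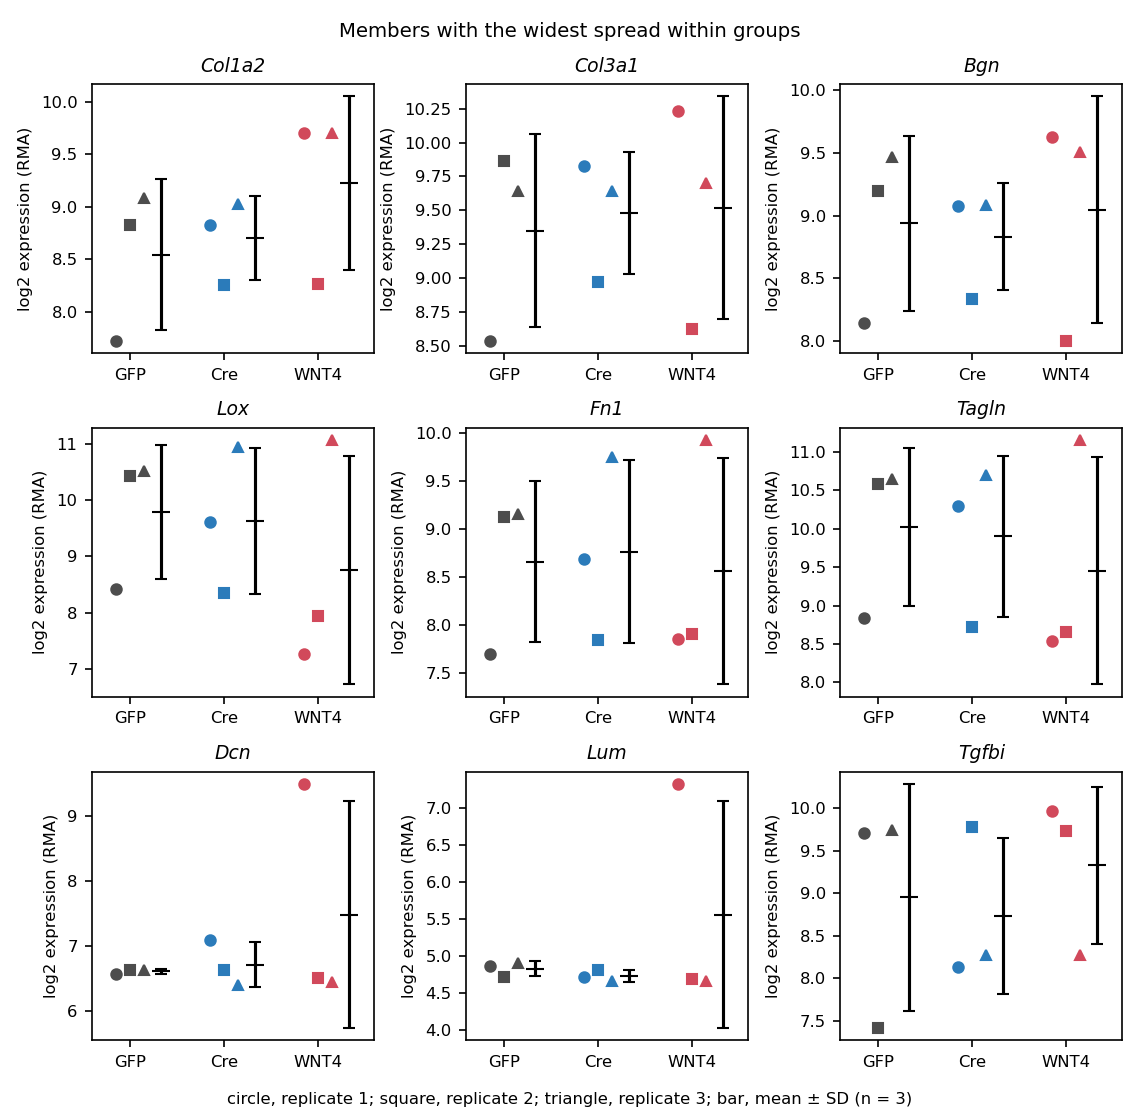
Log2 values on each array of 9 matrix genes with a wide spread within groups, with circles, squares and triangles for replicates 1, 2 and 3 and bars for the mean ± SD (n = 3). The top panels have GFP 1, Cre 2 and WNT4 2 lowest in their groups, Dcn and Lum are high on WNT4 1, and Tgfbi is low on GFP 2.

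The lowest array of each group was shared by some of the genes. GFP 1, Cre 2 and WNT4 2 were each the lowest of their group for 7 of 31 (22.58%), against 5.64% of all probe sets and 7.68% of bright ones. These are Col4a1, Col4a2, Nid1, Col1a2, Col3a1, Col5a1 and Bgn, which include both collagen IV chains and most bright fibrillar collagens. This set of lowest arrays was picked after the values of these genes were seen. A higher share among them is thus partly built in, and it was not tested. Relative to the GFP mean, the median of the stromal genes was -0.20, 0.15 and 0.08 on the GFP arrays, 0.03, -0.15 and 0.20 with Cre, and 0.71, -0.21 and 0.46 with WNT4. WNT4 2 thus stood below the GFP mean and both other WNT4 arrays above it. For the basement membrane genes the medians ran from -0.05 to 0.29 over all arrays. WNT4 1 was the highest of all arrays for 14 of the 31 genes (45.16%), where 37.04% of bright probe sets had their highest value.

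Matrix receptors and TGF-beta signalling, which acts on many matrix genes, were read from lists of the same kind. Of 24 receptor genes, WNT4 against GFP gave 2 higher and 4 lower at an unadjusted p under 0.05, Cre against GFP 0, and WNT4 against Cre 1 and 2, with 0 past limma's adjusted threshold. The 25.0% for WNT4 against GFP was near the 24.4% of bright probe sets (13.0% of all), and the 12.5% for WNT4 against Cre was near their 12.7% (6.23% of all). Itgb8, the integrin beta 8 subunit, read 6.34, 5.98 and 6.30 with GFP, 5.53, 6.36 and 5.81 with Cre, and 4.40, 4.86 and 5.06 with WNT4. Its WNT4 arrays lay below all others, by 1.43 ± 0.23 against GFP (adjusted p = 0.165, and 0.0491 without WNT4 2) and 1.13 against Cre. Its WNT4 values lie under 6, near the background of the arrays, so the size of these differences is uncertain. Itga9, the integrin alpha 9 subunit, was 0.61 ± 0.15 lower with WNT4 than with GFP, and Cd47, a thrombospondin receptor, was 0.74 ± 0.20 higher, or 0.48 after quantile normalization.

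Of 20 genes of TGF-beta signalling, WNT4 against GFP gave 1 higher and 2 lower, Cre against GFP 0 and WNT4 against Cre 1 and 1, again with 0 past the adjusted threshold. These are 15% and 10.0%, where 13.0% and 6.23% of all probe sets and 24.4% and 12.7% of bright ones passed. Smad2, which carries TGF-beta signals into the nucleus, was 0.51 ± 0.11 higher with WNT4 than with GFP (limma adjusted p = 0.173), or 0.28 after quantile normalization. Smad6, an inhibitory SMAD, was 1.28 ± 0.32 lower (adjusted p = 0.194), and Tgfb3, a ligand, was 0.53 ± 0.15 lower (adjusted p = 0.238). Median differences between WNT4 and GFP were -0.10 for the receptors, 0.17 for TGF-beta signalling and 0.26 for the collagen-processing genes.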

How the data were processed

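The deposited values are log2 expression values that the authors made with RMA, which corrects background, normalizes between arrays and summarises probe sets, per the submitters' processing notes; no source used here gives a version. That the scale is log2 was taken from their range (3.46 to 15.28; array medians 5.44 to 5.54). Of 45101 probe sets, 64 controls were left out and 45037 tested. The platform annotation gave 1 symbol for 34945, several for 932 and none here for 9160, and 34741 were matched by Entrez ID to RefSeq names (GRCm38.p6), giving 18193 genes. No build is named for the probe sets, so coordinates belong to RefSeq start sites alone.

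All 9 arrays entered 1 limma fit per probe set (version 3.58.1, R 4.3.3; two-sided, no covariate, lmFit then eBayes, with 6 residual and 2.8 prior degrees of freedom), followed by Benjamini-Hochberg adjustment over all 45037 probe sets. The procedure was run on simulated data with known changes and noise drawn independently for each array and probe set. Deviations shared between arrays or probe sets were not simulated, so that run cannot give the rate of false calls here. With 3 arrays against 3, an exact permutation test cannot go below p = 0.1, and the number of arrays limits the precision. Errors of differences are standard errors.

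The genes and lists were chosen with earlier results of these data known. Every gene of the group could be named, and from the lists of processing enzymes, receptors, other basement membrane genes and TGF-beta signalling up to 3 genes a comparison with the lowest p under 0.05. Alternatives were a replicate block, quantile normalization, fits of 2 groups alone, median or 75th percentile centring, leaving out means under 6, an intensity trend, array weights, a looser threshold, other probe sets of a gene and leaving out each array. Leaving out the 3 arrays numbered 3 was added after seeing the data. To check pairing, each array's deviations from its group mean were correlated over probe sets with those of the array of the same number: WNT4 with Cre gave 0.21, 0.24 and 0.77, so by the rule that each exceeds 0.1 the numbers were taken to pair those arrays, from the data and not the labels. Unlike numbers correlated as well in part (WNT4 1 with Cre 2, 0.32; WNT4 2 with Cre 1, 0.28), so for numbers 1 and 2 the pairing is weak. With GFP, same-numbered arrays ran from -0.31 to 0.35. Unlike numbers ran from -0.45 (WNT4 2 with GFP 3) to 0.50 (Cre 1 with GFP 2).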

Additional observations from a re-analysis of the deposited data

How the results depend on the processing

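Of 93 differences of the 31 genes, 17 changed sign under at least 1 scaling, and 174 of 180 alternative list medians moved by less than 1 SD between arrays. That SD is a wide limit, and medians within it could change sign. The stromal median for WNT4 against GFP, 0.14, ran from -0.13 to 0.45 with 1 array left out and stayed within it. The replicate block gave 10, 0 and 0 probe sets and 0 of the 31 genes for WNT4 against GFP, Cre against GFP and WNT4 against Cre, and changed no adjusted call of the 31 genes. At an unadjusted p under 0.05 it gave 7 genes in place of 6 for WNT4 against GFP, adding Col4a1, and 5 in place of 3 for WNT4 against Cre, where numbers were taken to pair arrays. For WNT4 against GFP the 7 probe sets past the threshold became 0 with the arrays of the pair alone, 3 with quantile normalization, 17 with 75th percentile centring, 15 with means under 6 left out, 1 with an intensity trend, 0 without the arrays numbered 3, 32 at an adjusted p under 0.1, and 0 to 748 with 1 array left out, the 748 without WNT4 2. The genes past it were 0 to 1 with 1 array left out, the 1 being Sparc without WNT4 2, and Cre against GFP gave 0 to 1 probe sets, the 1 without GFP 1. The basement membrane median for WNT4 against GFP, 0.18, became 0.027 with quantile normalization, 0.031 with 75th percentile centring and 0.024 with second-brightest probe sets. With means under 6 left out, the matricellular medians became 0.37, -0.23 and 0.54 for WNT4 against GFP, Cre against GFP and WNT4 against Cre, since 2 of 5 genes left the list. Other causes were not tested. Signal over background limits Nid2, Lum, Thbs2 and Postn.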
